A study of Rattus norvegicus with 19 samples.

Results

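Txnrd1, Prdx1, Srxn1, Gpx1, Gclc, Gclm, Sod2, Cat, Nqo1 and Hmox1 are 10 genes that detoxify reactive oxygen species and are commonly read as targets of the transcription factor NRF2. They were chosen by name, as the array probes whose RefSeq accession belongs to one of these rat genes, and they stand here against 22662 genes tested. The arrays carried 11 probes for them, 2 of these for Txnrd1, and 9 of the 10 genes were measured well enough to test. Female Wistar rats, labelled as 7 weeks of age, received corn oil or saline into the stomach each day over 14 days, and total RNA of the thymus was hybridised to 1-colour arrays. Saline was given at 10 ml/kg (5 thymuses), and corn oil at 2 ml/kg (5 thymuses), 5 ml/kg (4 thymuses) or 10 ml/kg (5 thymuses). All rats ate a standard diet, carried no transgene or deletion named in the labels and were housed 3 to a cage, and the labels give 6 animals to each group. Because saline was given at 1 volume, liquid and volume can be told apart only at 10 ml/kg. The labels do not tie each array to a separate animal, so the p-values describe the spread between these samples.

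NRF2 is held in the cytoplasm and marked for destruction by KEAP1, a sensor whose cysteines react with electrophiles and oxidants. When KEAP1 is modified, NRF2 enters the nucleus, pairs with a small MAF protein and binds antioxidant response elements in front of genes for glutathione synthesis, thioredoxin reduction and quinone removal. Corn oil is rich in polyunsaturated fat, whose double bonds can be peroxidised, which is why these genes are of interest in animals dosed with it.

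Promoter sequences of some members are shown because the family is usually defined by response element letters in front of its genes. Not every member promoter searched held them. RefSeq windows of 250 bases before the gene start (rat build GRCr8) were found for 9 of the 10 members, and Hmox1 is named only. The antioxidant response element was searched on both strands as TGACNNNGC, which reads GCNNNGTCA on the opposite strand. It occurred in 3373 of 33469 rat promoters of that length, or 10.1%. It occurred in 1 promoter each of Txnrd1, Prdx1, Gclm and Sod2, always on the strand opposite to the gene, and capitals mark it below. Its first base lay 78 bases before the second of 2 Txnrd1 starts, 135 bases before the Prdx1 start, 172 before the Gclm start and 35 before the Sod2 start. The Prdx1 match, 1 of these 4, also holds an AP-1 heptamer (TGACTCA or its reverse complement TGAGTCA), which 4.05% of all promoters contain. The response element letters did not occur in the windows of Gpx1, Nqo1, Gclc, Srxn1, Cat and the first Txnrd1 start, although the Srxn1 window holds an AP-1 heptamer. Bases further than 250 from the start were not searched, so an element lying there would be missed. The Gpx1 window is printed beside those of Txnrd1 and Prdx1 because Gpx1 and Txnrd1 were the 2 members that passed the test against saline. Each sequence reads 5′ to 3′ along the strand of its gene.
Txnrd1, chr7:22755905-22756154, minus strand: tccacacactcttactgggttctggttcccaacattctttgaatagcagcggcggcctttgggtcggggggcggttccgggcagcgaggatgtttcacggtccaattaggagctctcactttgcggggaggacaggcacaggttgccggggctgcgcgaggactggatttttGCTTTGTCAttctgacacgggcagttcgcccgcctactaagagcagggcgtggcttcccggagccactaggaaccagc
Prdx1, chr5:135383656-135383905, plus strand: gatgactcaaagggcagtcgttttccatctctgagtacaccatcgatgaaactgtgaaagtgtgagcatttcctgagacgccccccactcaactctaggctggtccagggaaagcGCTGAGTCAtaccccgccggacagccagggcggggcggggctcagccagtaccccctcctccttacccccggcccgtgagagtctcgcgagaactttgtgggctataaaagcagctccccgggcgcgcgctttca
Gpx1, chr8:117905212-117905461, plus strand: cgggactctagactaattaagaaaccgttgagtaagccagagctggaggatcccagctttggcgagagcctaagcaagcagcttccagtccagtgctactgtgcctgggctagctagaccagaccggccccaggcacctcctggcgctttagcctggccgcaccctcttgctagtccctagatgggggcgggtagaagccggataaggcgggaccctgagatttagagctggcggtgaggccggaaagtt
Gclm, chr2:213031952-213031982, plus strand: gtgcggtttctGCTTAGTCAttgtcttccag
Sod2, chr1:50050184-50050214, minus strand: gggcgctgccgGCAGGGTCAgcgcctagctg

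The arrays lay on 5 slides that did not carry every group. Slide 1 held saline replicates 3 and 4 with 2 ml/kg replicates 2 and 3. On slide 2 were 5 ml/kg replicates 1, 3 and 4 and 2 ml/kg replicate 5. Of the 10 ml/kg oil arrays, replicates 1 to 3 shared slide 3 with saline replicate 5, and replicates 4 and 5 shared slide 5 with 5 ml/kg replicate 2. Saline replicates 1 and 2 were on slide 4 beside 2 ml/kg replicates 1 and 4. Between 69.7% and 88.4% of spots were well above background on an array. Thymocyte genes such as Cd4, Cd8a and Rag1 were read on every array, with all 8 tested genes of a list of 9 above background in each group. Saline replicate 2 stood apart: among the saline arrays it had the highest adipocyte, B cell, endothelial, macrophage and erythroid marker levels, with a summed adipocyte level of 30.6 where saline began at 5.09 and a B cell level of 4.93 where it began at 0.609 (each gene's signal in units of the array's 75th percentile, summed over the list). Values without it are given below for several calls and marker ranges that change when it is left out. In whole-thymus RNA, fewer cells of a type and less RNA per cell cannot be told apart.

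Against saline, antioxidant genes passed the test at 10 ml/kg corn oil and at neither lower volume. Txnrd1 and Gpx1 rose, Sod2, Srxn1 and Prdx1 had positive differences that did not pass the test, and Nqo1, Gclc, Cat and Hmox1 had differences from 0.22 down to -0.14. A level below is the log2 of the processed intensity minus the log2 of that array's 75th percentile, so that 0 is the brightness of the probe at that percentile; levels are compared between arrays for 1 probe only. Differences were tested with limma over all 19 arrays, with Benjamini-Hochberg adjustment over all genes tested and a threshold of 0.05. In the comparison with saline at that volume, 2 of the 9 tested members passed, beside 6.34% of all genes. The members' median difference was 0.34 on the log2 scale and that of all genes was -0.13, and 8 of 9 members lay above the all-gene median, Cat by 0.0019. This count moved with the processing. Hmox1, Gclc and Cat lay below that median with normexp background correction, and Hmox1 and Gclc did with slide as a fixed block.

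**Figure D1:**
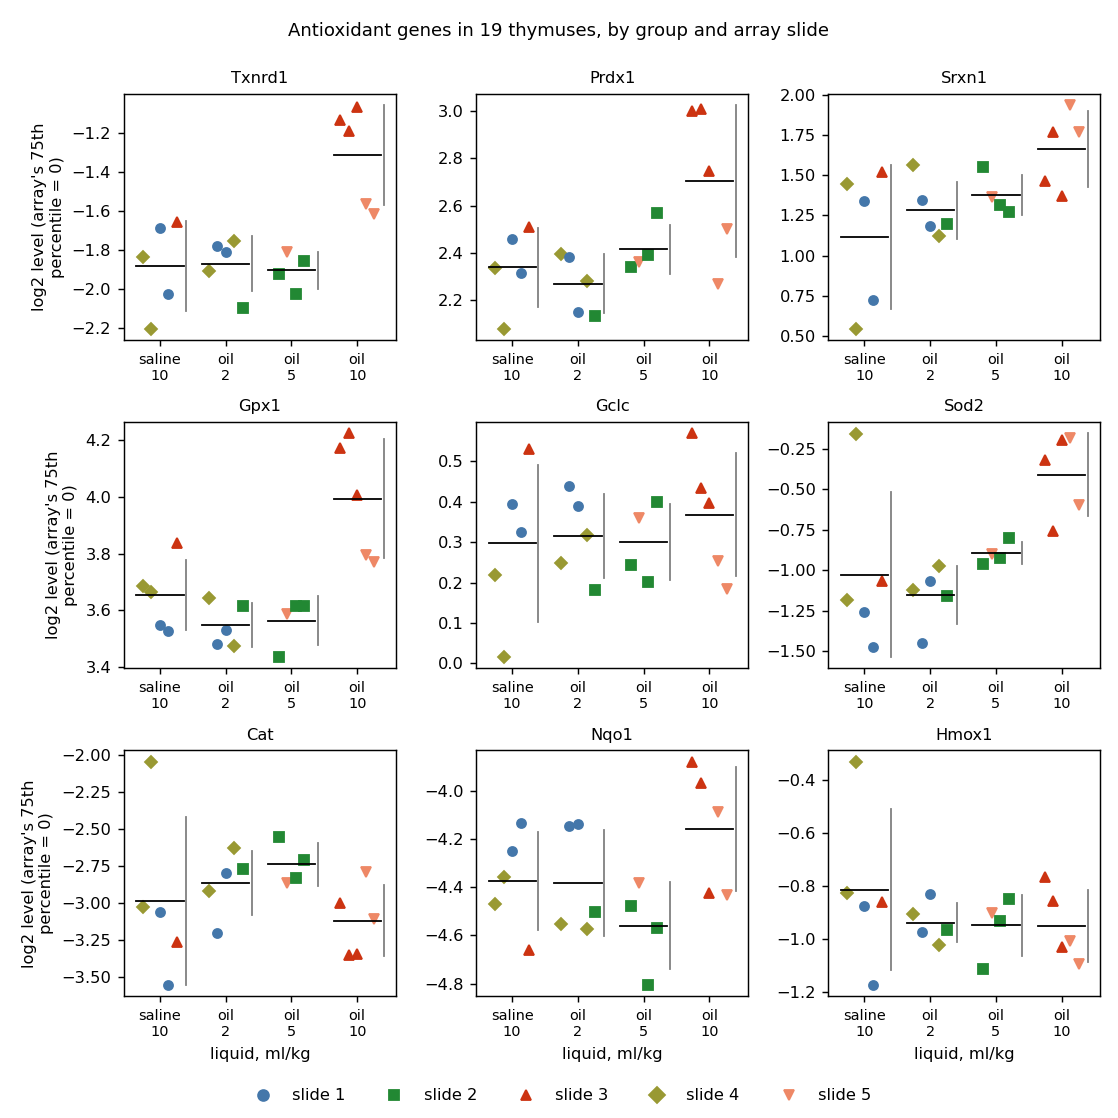
Level of 9 antioxidant genes (vertical axes, log2 with the array's 75th percentile at 0, each panel with its own range) in the 19 thymuses, grouped by liquid and dosing volume in ml/kg (horizontal axes). Each point is 1 array, its shape and colour give the slide, the black line is the group mean and the grey bar spans 1 SD to either side. Txnrd1 at 10 ml/kg lies between -1.62 and -1.07, above all other arrays, and the slide 3 points are the highest of that group for Txnrd1 and Gpx1.

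Txnrd1 encodes cytosolic thioredoxin reductase, the selenium enzyme that uses NADPH to return oxidised thioredoxin to its reduced form. Its brighter probe read -1.84, -2.20, -1.69, -2.03 and -1.65 in saline replicates 1 to 5. It read -1.91, -1.78, -1.81, -1.75 and -2.10 at 2 ml/kg corn oil and -1.92, -1.81, -2.02 and -1.86 at 5 ml/kg. The 10 ml/kg oil arrays read -1.13, -1.19, -1.07, -1.56 and -1.62. All 5 arrays of the highest volume lay above all 14 others, while the other 3 groups overlapped one another throughout. The difference from saline was 0.57 ± 0.13 (SE, n = 5 and 5; 1.48-fold, 95% confidence interval 1.23 to 1.78; limma adjusted p = 0.0129). It was 0.70 above the shift of the median gene (0.64 with quantile normalisation and 0.40 with normexp), and it kept its call in each of the 19 fits that left out 1 array (0.49 to 0.64). With normexp background correction it was 0.48 (adjusted p = 0.177). Saline and 10 ml/kg did not overlap for 1 of the 9 tested members, Txnrd1, and for 5.42% of all genes.

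The second Txnrd1 probe gave another picture. It read -4.27, -4.69, -3.80, -4.88 and -4.26 in saline and -4.36, -4.14, -4.53, -4.06 and -4.13 at 10 ml/kg corn oil, so that the 10 ml/kg arrays fell inside the saline range. It was well above background on every array. Its difference from saline was 0.14 ± 0.16 (SE; limma adjusted p = 0.579 over all probes). Against 2 ml/kg corn oil it was -0.07 ± 0.16, where the brighter probe gave 0.56 ± 0.13. The rise is thus a reading of 1 of the 2 Txnrd1 probes, and with both averaged the gene gave 0.35 (adjusted p = 0.0816). Which transcripts each probe meets was not tested.

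**Figure D2:**
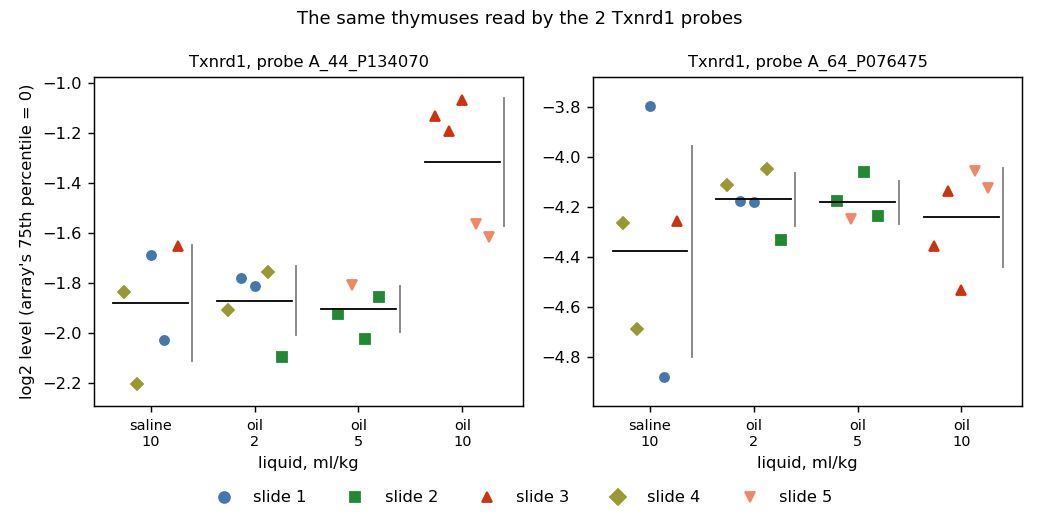
Level of Txnrd1 in the same 19 arrays by its brighter probe (left) and its dimmer probe (right), with the same span of log2 units on both vertical axes and groups in ml/kg on the horizontal axes. Points are arrays marked by slide, black lines are group means and grey bars span 1 SD to either side; the 10 ml/kg arrays stand above the others on the left and lie inside the saline range of -4.88 to -3.80 on the right.

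Prdx1 encodes an abundant cytosolic peroxiredoxin that reduces hydrogen peroxide with electrons from thioredoxin. It read 2.34, 2.08, 2.46, 2.31 and 2.51 in saline, and 3.00, 3.01, 2.75, 2.27 and 2.50 at 10 ml/kg corn oil. The 3 arrays of slide 3 lay above every saline array, and the 2 arrays of slide 5 lay inside the saline range. The difference was 0.37 ± 0.13 (SE; adjusted p = 0.102) and did not pass. Leaving out 10 ml/kg replicate 4 brought it past the threshold (0.48, adjusted p = 0.0224), as did leaving out saline replicate 5 (0.41, adjusted p = 0.049). Those fits called 8.77% and 20.7% of all genes, beside 6.34% with all arrays.

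Srxn1 encodes sulfiredoxin, which rescues peroxiredoxins whose active cysteine has been over-oxidised. Saline arrays read 1.45, 0.54, 1.34, 0.72 and 1.52, a wider saline spread (SD 0.45) than that of Txnrd1 or Prdx1, with replicates 2 and 4 far below the others. Levels at 10 ml/kg oil were 1.46, 1.77, 1.37, 1.94 and 1.77, of which 3 exceeded every saline array. The difference was 0.55 ± 0.18 (SE; adjusted p = 0.0741). Leaving out saline replicate 2 gave 0.41 (adjusted p = 0.135). It passed without saline replicate 5 (0.65, adjusted p = 0.0251), a fit that called 20.7% of all genes, beside 6.34% with all arrays.

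In the glutathione arm, Gpx1 encodes the main cytosolic glutathione peroxidase, a selenium enzyme that reduces hydrogen peroxide at the expense of glutathione. It read 3.69, 3.67, 3.55, 3.53 and 3.84 in saline and 4.17, 4.23, 4.01, 3.80 and 3.77 at 10 ml/kg corn oil. Here 3 of the 5 oil arrays, all on slide 3, lay above every saline array, and the highest saline value was also from slide 3. The probe is printed 10 times on an array, and its repeat spots differed by an SD of 0.0272 to 0.0758, under the SD of 0.0774 to 0.209 between arrays of a group. The rise was 0.34 ± 0.09 (SE; 1.27-fold, 1.10 to 1.45; adjusted p = 0.0419). This call sat at the threshold: it was lost in 13 of 19 fits that each left out 1 array, saline replicate 2 among them (0.34, adjusted p = 0.0598), while the difference stayed between 0.28 and 0.40.

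Gclc and Gclm encode the catalytic and the modifier subunit of glutamate-cysteine ligase, the first and limiting enzyme of glutathione synthesis. Gclc lay between 0.02 and 0.53 in saline and between 0.18 and 0.57 at 10 ml/kg, and its difference was 0.07 ± 0.10 (SE, 95% confidence interval -0.14 to 0.28; adjusted p = 0.65). Gclm was not well above background on any of the 19 arrays, with intensities of 1.64 to 15.7, and no difference is given for it. The subunit whose window holds the response element letters was thus not measured here, and the one that was measured overlapped between all groups.

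Sod2 encodes the manganese superoxide dismutase of mitochondria, which turns superoxide into hydrogen peroxide, and is also known as a gene that rises in inflammation. It read -1.18, -0.16, -1.26, -1.47 and -1.06 in saline, so that replicate 2 lay far above the other 4. The 10 ml/kg oil arrays were at -0.32, -0.76, -0.19, -0.18 and -0.60. All 5 oil arrays were above 4 of the 5 saline arrays and below replicate 2. The difference was 0.62 ± 0.19 (SE; 1.53-fold, 1.16 to 2.03; adjusted p = 0.0661) and did not pass. Of 19 fits that each left out 1 array, 1 passed, that without saline replicate 2 (0.83 ± 0.13 SE; limma adjusted p = 0.00114). The rest did not pass, with an adjusted p of up to 0.164. That array stood apart in its cell type markers, but it also holds the highest saline Sod2. Leaving it out was therefore bound to raise the difference.

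Cat encodes catalase, the peroxisomal enzyme that splits hydrogen peroxide. It lay between -3.55 and -2.04 in saline, the highest value again from replicate 2, and between -3.35 and -2.79 at 10 ml/kg. Its difference was -0.13 ± 0.21 (SE; adjusted p = 0.70). Its sign was not stable: the difference was 0.11 (adjusted p = 0.651) without saline replicate 2, 0.03 with normexp and 0.15 with quantile normalisation.

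Nqo1 encodes the quinone reductase that gave the response element its classical reporter. It lay between -4.66 and -4.13 in saline and between -4.43 and -3.88 at 10 ml/kg, with 3 of 5 oil arrays above every saline array, and its difference was 0.22 ± 0.14 (SE, 95% confidence interval -0.08 to 0.51; adjusted p = 0.311). The Nqo1 difference was 0.40 with slide as a fixed block, 0.31 as a random block and 0.61 with quantile normalisation. It passed in none of these. The Nqo1 probe was dim, with intensities of 66.2 to 168. Hmox1 encodes haem oxygenase, which opens the haem ring to biliverdin, iron and carbon monoxide. Its saline arrays lay between -1.17 and -0.33 and the 10 ml/kg arrays between -1.09 and -0.77, inside the saline range. The difference was -0.14 ± 0.12 (SE, 95% confidence interval -0.39 to 0.12; adjusted p = 0.452), and -0.02 without saline replicate 2. A p above the threshold does not show that these genes were equal, and the intervals bound the differences these arrays allow.

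At the lower volumes no member passed. At 5 ml/kg the 9 differences from saline ran from -0.18 to 0.26 (adjusted p from 0.603 to 0.99), beside 0% of all genes called. At 2 ml/kg they ran from -0.13 to 0.17, again beside 0% of all genes. By limma, 0 of 9 members had an unadjusted p under 0.05 at either volume, beside 1878 of 22662 genes at 5 ml/kg and 209 at 2 ml/kg. The mean of the 3 corn oil groups minus saline likewise called 0 of 9 members, beside 0.101% of all genes, and at an unadjusted p under 0.05 it named 1, Srxn1 (0.33 ± 0.15 SE; adjusted p = 0.781). At that unadjusted threshold it named 1423 of 22662 genes. Groups did not overlap for 0 members at 5 ml/kg and 0 at 2 ml/kg, where 2.46% and 0.3% of all genes did not overlap.

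**Figure D3:**
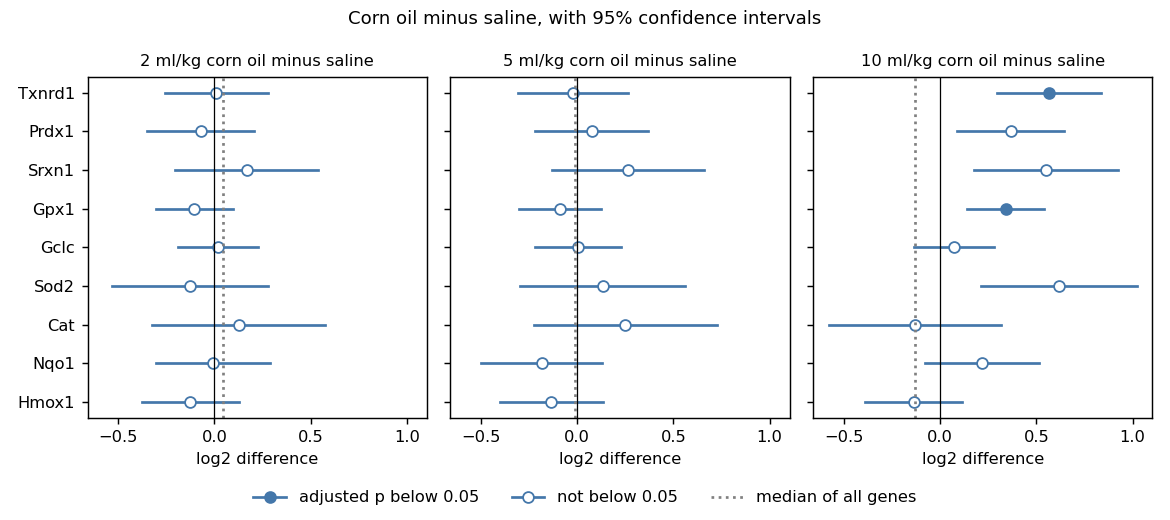
Log2 difference of each antioxidant gene from saline (horizontal axes) at 2, 5 and 10 ml/kg corn oil, with 95% confidence intervals; filled points passed an adjusted p of 0.05 and the dotted line is the median of all genes. Filled points appear at 10 ml/kg alone, for Txnrd1 (0.57) and Gpx1 (0.34), and the intervals at 2 and 5 ml/kg all cross 0.

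Between oil volumes, with saline left aside, the highest volume was set against the others; these comparisons share the 5 arrays of the 10 ml/kg group with the comparison above. Against 2 ml/kg, 4 of 9 members passed, beside 12.5% of all genes. Txnrd1 was higher by 0.56 ± 0.13 (SE; adjusted p = 0.0121) and Gpx1 by 0.44 ± 0.09 (SE; adjusted p = 0.00781). Prdx1 was higher by 0.44 ± 0.13 (adjusted p = 0.0416) and Sod2 by 0.74 ± 0.19 (adjusted p = 0.0227). Sod2 at 2 ml/kg read -1.12, -1.45, -1.07, -0.98 and -1.16, below each of the 5 arrays at 10 ml/kg. Prdx1 at 2 ml/kg read 2.40, 2.38, 2.15, 2.28 and 2.13, which overlapped the 10 ml/kg group at its lowest array. The 10 ml/kg and 2 ml/kg groups did not overlap for 3 members, Txnrd1, Gpx1 and Sod2, and for 10.3% of all genes. Prdx1 lost this call in 12 of 19 fits that left out 1 array, and Sod2 lost it in 3, without 2 ml/kg replicate 2, 10 ml/kg replicate 1 or 10 ml/kg replicate 3.

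Against 5 ml/kg, 2 of 9 members passed, beside 7.94% of all genes. These were Txnrd1 (0.59 ± 0.13 SE; adjusted p = 0.0145) and Gpx1 (0.43 ± 0.10 SE; adjusted p = 0.0164). Sod2 at 5 ml/kg read -0.96, -0.90, -0.92 and -0.80, again below all 10 ml/kg arrays, with a difference of 0.49 ± 0.20 (SE; adjusted p = 0.147). Of 19 fits that each left out 1 array, Sod2 passed in 1, that without saline replicate 2 (limma adjusted p = 0.0293). Nqo1 gave 0.40 ± 0.15 (SE; adjusted p = 0.102) and Prdx1 0.29 ± 0.14 (SE; adjusted p = 0.206). Groups did not overlap for 3 members, Txnrd1, Gpx1 and Sod2, and for 11.3% of all genes. Txnrd1 lost its call without 5 ml/kg replicate 3 (adjusted p = 0.0548) and Gpx1 without 5 ml/kg replicate 1 (adjusted p = 0.0677). In mean level Txnrd1, Gpx1 and Sod2 were highest at 10 ml/kg. The other 3 groups overlapped for Txnrd1 and Gpx1, whereas for Sod2 the highest array at 2 ml/kg (-0.98) lay just below the lowest at 5 ml/kg (-0.96), a difference that was not tested.

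The slide moved with these results. It accounted for 74.3% of the variance of Txnrd1 and 81.1% of that of Gpx1, and group for 67.3% and 69.1%; over all genes the medians were 58.1% for slide and 28.2% for group. Within slide 3, 3 arrays at 10 ml/kg exceeded the single saline array by 0.52 for Txnrd1, 0.30 for Gpx1, 0.41 for Prdx1, 0.64 for Sod2 and 0.57 for Nqo1, and by 0.02 for Srxn1. Within slide 5, 2 arrays at 10 ml/kg exceeded the single 5 ml/kg array by 0.22 for Txnrd1, 0.20 for Gpx1, 0.02 for Prdx1, 0.51 for Sod2, 0.12 for Nqo1 and 0.49 for Srxn1. Hmox1, Gclc and Cat differed by -0.02, -0.06 and 0.03 within slide 3 and by -0.15, -0.14 and -0.08 within slide 5. All-gene medians in those sets were -0.06 and 0.02. For Sod2 the values within both slides were near those across them (0.62 against saline and 0.49 against 5 ml/kg), while for Prdx1 slide 3 was near and slide 5 was close to 0. Without saline replicate 2 the Sod2 difference from saline across slides was 0.83, further from the slide 3 value. The arrays within each slide are also part of the values across slides. Within slides 1 and 4, the 2 ml/kg arrays differed from saline by -0.38 to 0.35 in the 9 members, and slide 2 gave -0.12 to 0.30 for 5 against 2 ml/kg.

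With the slide as a fixed block, 0 of 9 members passed in any of the 6 comparisons, and all genes called were 2% at 10 ml/kg corn oil minus saline, 1.23% against 2 ml/kg and 1.2% against 5 ml/kg. They were 0.194% for the mean of the oil groups and 0% at 2 and 5 ml/kg minus saline. For the highest volume against saline, 4 members had an unadjusted p under 0.05 in that limma fit: Txnrd1 (0.52 ± 0.13 SE; adjusted p = 0.0619), Gpx1 (0.23 ± 0.10; adjusted p = 0.32), Prdx1 (0.39 ± 0.14; adjusted p = 0.212) and Sod2 (0.64 ± 0.28; adjusted p = 0.318). The same fit gave 4 at an unadjusted p under 0.05 against 2 ml/kg, 1 against 5 ml/kg, 1 for 5 ml/kg minus saline, 0 for 2 ml/kg minus saline and 2 for the mean of the oil groups. How many of all genes had an unadjusted p under 0.05 was not counted in the fits with a block. Without a block, limma gave 5996 of 22662 genes at 10 ml/kg against saline, 8452 against 2 ml/kg and 5710 against 5 ml/kg. With the slide as a random block, whose estimated correlation between arrays of a slide was 0.507, Txnrd1 passed (0.53 ± 0.12 SE; adjusted p = 0.0187) and no other member did, beside 3.97% of all genes. That fit called 0 members against 2 ml/kg, beside 3.29% of all genes, and 0 against 5 ml/kg, beside 2.94%, with 4 and 3 at an unadjusted p under 0.05. It also called 0 for the mean of the oil groups, beside 0.119%, with 1 at an unadjusted p under 0.05. The directions of these 4 members did not change under either block. Slide 3 also held the most spots marked as uneven by the scanner software, 173 to 590 an array against 6 to 62 on the other slides. The part of the slide in the differences was not tested beyond these fits.

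**Figure D4:**
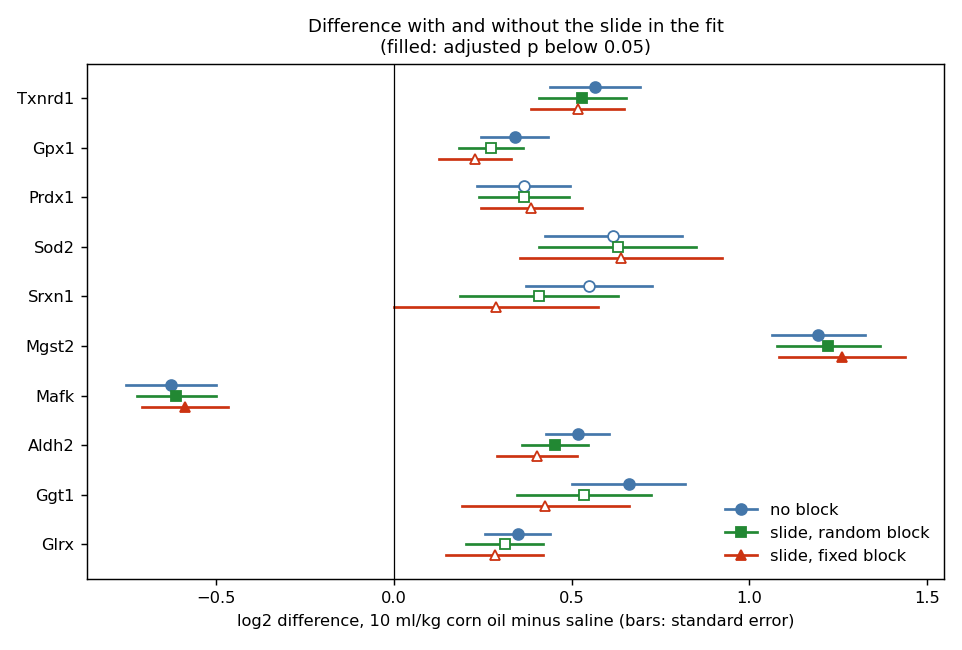
Log2 difference between 10 ml/kg corn oil and saline (horizontal axis) for 5 antioxidant genes and 5 pathway genes, without a block (circles), with slide as a random block (squares) and with slide as a fixed block (triangles). Bars are standard errors and filled symbols passed an adjusted p of 0.05. Mgst2 (1.19, 1.22 and 1.26) and Mafk (-0.63, -0.61 and -0.59) are filled in all 3 fits, and Txnrd1 in the first 2.

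The members did not move as 1 block across arrays. After the mean of each slide was subtracted, 22 of 36 pairs of members had a positive Pearson correlation over the 19 arrays, with a median of 0.265. The highest were Hmox1 with Cat (0.721), Sod2 with Cat (0.674), Txnrd1 with Prdx1 (0.641) and Gpx1 with Nqo1 (0.638). Txnrd1 and Prdx1 stand on either side of thioredoxin in 1 electron path. Saline replicate 2 holds the highest Hmox1, Sod2 and Cat of the saline arrays. Without it Hmox1 with Cat was 0.42 and Sod2 with Cat 0.421, Txnrd1 with Sod2 was the highest pair at 0.801, and 30 of 36 pairs were positive. These are descriptions over arrays that share slides and groups. Among 12211 genes with a symbol and no missing value, Adk (0.872), Ankrd34b (0.863) and Nt5c3b (0.857) followed Txnrd1 most closely after the same subtraction. Psme1, a proteasome activator subunit induced by interferon, (0.922), the glutathione transferase Gsto1 (0.90) and Igsf7 l1 (0.878) were closest to Gpx1. Psmb2, a proteasome subunit, (0.916), Ssb (0.904) and Rbm17 (0.893) were closest to Prdx1, and Pyurf (0.968), Zfp532 (0.932) and Nxpe1 (0.919) to Sod2. Without saline replicate 2 these 12 correlations ran from 0.822 to 0.97. The genes were picked as the highest of 12211 on these same arrays, so high values were built in and are no independent evidence.

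The wider pathway was read from 8 lists holding 74 further genes, of which 70 were tested. Set against saline at the highest volume, 4 rose and 4 fell (11.4%, beside 6.34% of all genes), and the median difference was 0.01 on the log2 scale, beside -0.13 for all genes. Without saline replicate 2 the calls were 4 and 2 (8.57%, beside 6.31%), Maff, Glrx and Ephx1 being lost and Gpx7 gained. Among the sensor and its partners (11 of 11 tested) none rose and 2 fell, both small MAF proteins that pair with NRF2 or with its competitor BACH1. Mafk lay between -2.82 and -2.31 in saline and between -3.33 and -2.85 at 10 ml/kg, with no overlap, and its difference was -0.63 ± 0.13 (SE; adjusted p = 0.00663). Maff gave -1.06 ± 0.30 (SE; adjusted p = 0.0478), also with no overlap, and lost its call in 14 of 19 fits that left out 1 array and under both slide blocks. The gap was narrow, with the highest 10 ml/kg array at -4.28 and the lowest saline array at -4.26. Mean levels in saline, at 5 ml/kg and at 10 ml/kg were -3.82, -4.77 and -4.88 for Maff and -2.51, -2.86 and -3.14 for Mafk. The fall of Mafk kept its call under both slide blocks (-0.59 fixed, -0.61 random), but not with quantile normalisation (-0.40, adjusted p = 0.18) or normexp (-0.31, adjusted p = 0.725).

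Nfe2l2, which encodes NRF2 itself, lay between 1.03 and 1.16 in saline and between 1.12 and 1.61 at 10 ml/kg. It differed by 0.26 ± 0.10 (SE; adjusted p = 0.116) from saline and passed against 2 ml/kg corn oil (0.32 ± 0.10 SE; adjusted p = 0.0463). That second call was lost in 13 of 19 fits that left out 1 array and with slide as a fixed block (0.37, adjusted p = 0.148) or a random block (0.33, adjusted p = 0.0806). With scan day as a block it was 0.18 (adjusted p = 0.397). The 3 arrays of slide 3 read 1.61, 1.48 and 1.59, and the 2 arrays of slide 5, at 1.15 and 1.12, lay inside the saline range. Keap1 gave -0.08 ± 0.09 (SE; adjusted p = 0.564), Bach1 -0.26 ± 0.17 (adjusted p = 0.324) and Sqstm1 -0.04 ± 0.10 (adjusted p = 0.811) against saline.

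Of the glutathione genes (13 of 15 tested) 3 rose and none fell. Mgst2, a microsomal glutathione transferase that also conjugates leukotriene A, had the largest rise of the 70 pathway genes. It lay between -1.78 and -1.48 in saline, between -1.82 and -1.53 at 2 ml/kg and between -2.01 and -1.39 at 5 ml/kg. The 10 ml/kg arrays lay between -0.78 and -0.07, above all 14 other arrays. The difference from saline was 1.19 ± 0.13 (SE; adjusted p = 2.59e-05). It was 1.26 within slide 3 against its saline array and 1.08 within slide 5 against its 5 ml/kg array. It held its call with slide as a fixed block (1.26 ± 0.18 SE; adjusted p = 0.00229) and in each of the 19 fits that left out 1 array (adjusted p at most 0.00015).

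Ggt1, which breaks down extracellular glutathione, rose by 0.66 ± 0.16 (SE; adjusted p = 0.019) and Glrx, a glutaredoxin, by 0.35 ± 0.09 (SE; adjusted p = 0.0314). Neither passed with slide as a fixed block (adjusted p = 0.454 and 0.378), and Glrx did not pass without saline replicate 2 (0.29, adjusted p = 0.0655). The cystine carrier Slc7a11, a frequently used NRF2 target, gave -0.04 ± 0.16 (SE; adjusted p = 0.884).

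Of the genes for other conjugation and carbonyl removal (9 of 9 tested), Aldh2 rose and Ephx1 fell. Aldh2, the mitochondrial aldehyde dehydrogenase that also clears lipid-derived aldehydes, lay between 1.33 and 1.71 in saline and between 1.98 and 2.16 at 10 ml/kg, with no overlap. Its difference was 0.52 ± 0.09 (SE; adjusted p = 0.00197), and 0.40 (adjusted p = 0.0924) with slide as a fixed block. Ephx1, the microsomal epoxide hydrolase, gave -0.52 ± 0.15 (SE; adjusted p = 0.0431), which did not pass without saline replicate 2 (-0.47, adjusted p = 0.0821).

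The remaining lists held 1 call against saline. Of haem and iron genes (8 of 8 tested) the haem carrier Slc48a1 fell by 0.34 on the log2 scale (SE 0.08; adjusted p = 0.017), a call that was lost with slide as a fixed block (-0.30, adjusted p = 0.296) and with quantile normalisation (-0.17, adjusted p = 0.25). None of 5 tested genes of NADPH supply passed, Me1 giving -0.43 ± 0.32 (SE; adjusted p = 0.385). None of 10 further thioredoxin and peroxiredoxin genes passed. Txnip, the inhibitor of thioredoxin, ranged from -0.06 to 1.22 in saline and from -1.58 to 0.82 at 10 ml/kg and gave -0.98 ± 0.41 (SE; adjusted p = 0.15), and Prdx4 gave -0.29 ± 0.20 (adjusted p = 0.336). None of 7 superoxide and peroxide genes passed, Gpx7 giving 0.48 ± 0.18 (adjusted p = 0.122) and Sod3 -0.51 ± 0.68 (adjusted p = 0.63).

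None of 7 lipid peroxidation and ferroptosis genes passed against saline. Alox15, an arachidonate lipoxygenase, gave -0.58 ± 0.22 (SE; adjusted p = 0.122) and Alox5 0.35 ± 0.13 (SE; adjusted p = 0.111). Against 2 ml/kg corn oil, Alox15 was lower by 0.86 (SE 0.22; adjusted p = 0.0238), a call lost in 5 of 19 fits that left out 1 array. With slide as a fixed block it was -0.27 (adjusted p = 0.691), as a random block -0.54 (adjusted p = 0.228), with normexp -0.45 (adjusted p = 0.732) and with quantile normalisation -0.20 (adjusted p = 0.431). Against 5 ml/kg, Ucp2 was higher by 0.41 ± 0.10 (SE; adjusted p = 0.0179) and Txnip gave -1.46 ± 0.44 (SE; adjusted p = 0.0498), the latter lost in 16 of those fits. Neither passed with slide as a fixed block (Ucp2 0.31, adjusted p = 0.449; Txnip -0.95, adjusted p = 0.138) or as a random block (adjusted p = 0.125 and 0.0867). In all, 70 tested pathway genes gave 0 calls at 5 ml/kg and 0 at 2 ml/kg against saline, where limma named 6 and 0 at an unadjusted p under 0.05. Of all 22662 genes, limma named 1878 and 209 at that unadjusted threshold. When slide was a fixed block, Mgst2 and Mafk were the 2 pathway genes called at 10 ml/kg against saline, 2.86% of those tested beside 2% of all genes.

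Markers of other cell types changed at the same volume as the antioxidant genes. Of 7 tested granulocyte genes 3 rose at the highest volume relative to saline (42.9%, where 6.34% of all genes were called in this and the following lists). Lcn2, which encodes neutrophil gelatinase-associated lipocalin, an iron-siderophore binding protein of granulocytes and inflamed tissue, rose from -6.05 to -4.80 in saline to -0.75 to -0.14, by 4.80 ± 0.21 (SE; adjusted p = 1.4e-10). S100a9 rose by 1.12 ± 0.31 (SE; adjusted p = 0.042) and Prg2, of eosinophils, by 1.51 ± 0.32 (SE; adjusted p = 0.00987). The summed granulocyte level ran from 4.88 to 13.4 in saline and from 10.9 to 29.9 at 10 ml/kg, where 7 of 8 list genes were above background on every array. Of 10 endothelial and fibroblast genes 5 rose, namely Col1a1 (1.32), Col3a1 (1.04), Tagln (0.90), Pdgfrb (0.72) and Pecam1 (0.53), with adjusted p from 0.0117 to 0.041. With slide as a fixed block 1 granulocyte gene, Lcn2, and 1 of these 10, Tagln, passed. The summed endothelial and fibroblast level ran from 8.01 to 20 in saline and from 14 to 20.1 at 10 ml/kg, and without saline replicate 2 these ranges did not overlap.

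Of 8 thymocyte genes none rose and 1, Cd1d1, fell (-0.31 ± 0.08 SE; adjusted p = 0.038), and the summed level ran from 62.0 to 78.3 in saline and from 58.4 to 78.5 at 10 ml/kg. None of 7 macrophage genes (3.11 to 3.69 and 2.62 to 3.29), of 8 adipocyte genes (5.09 to 30.6 and 5.19 to 16.7), of 3 B cell genes (0.609 to 4.93 and 1.05 to 1.70) or of 6 thymic epithelial genes (7.88 to 9.66 and 8.81 to 17.2) passed, each pair of ranges giving saline and then 10 ml/kg. Leaving out saline replicate 2 moved the start of the saline granulocyte range to 7.77 and the end of the macrophage range to 3.61. Without saline replicate 2 the saline ranges ended at 8.56 for adipocyte, 0.949 for B cell, 12.8 for erythroid and 0.556 for hepatocyte genes. In that fit the B cell gene Cd79b passed, S100a9 did not pass, and 6 endothelial and fibroblast genes did, Col1a2 being added, beside 6.31% of all genes. Of 5 erythroid genes 1 rose, Hba-a3 (4.28 ± 0.64 SE; adjusted p = 0.000586; summed level 5.27 to 31.0 and 9.48 to 25.7). Of 4 genes of the hepatocyte list 2 fell, Alb (-2.81 ± 0.67 SE) and Ahsg (-3.22 ± 0.83 SE; adjusted p = 0.0174 and 0.0285; summed level 0.215 to 0.655 and 0.0904 to 0.123). These readings do not show that hepatocytes were present, and which thymus cells held this RNA was not tested. The part of these cell types in the antioxidant differences was not tested.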

How the data were processed

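Total RNA of 19 thymuses was labelled with Cy3 and hybridised to Agilent rat arrays, per the labels. Per the file headers, the deposited scanner files hold background-corrected intensity for each spot from Feature Extraction 10.7.3.1; a series value table deposited by the authors holds intensity too, each array within 5% of the processed signal times 1 factor for at least 99.7% of probes, with its scaling not stated. Array probes were named through unversioned accessions and RefSeq (GRCr8): 17328 probes gained 14629 symbols and 13039 stayed unnamed. Control spots and spots marked uneven or as population outliers were left out, repeat spots averaged, and log2 values centred on each array's 75th percentile. Probes well above background on at least 4 arrays were kept (25474 probes, 22662 genes), and the probe with the highest mean stood for its gene. Limma 3.58.1 in R 4.3.3 fitted 4 group means to all arrays, with two-sided tests and Benjamini-Hochberg adjustment at 0.05. The number of arrays limits the precision.

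The members and gene lists were chosen with earlier results of these data known. Named are the 10 members, each pathway gene past the threshold in a comparison and otherwise the 2 of a list with the largest difference at 10 ml/kg against saline, some further genes of the NRF2 and marker lists chosen after their values were seen (Nfe2l2, Keap1, Bach1, Sqstm1, Slc7a11, Lcn2, S100a9, Prg2, Col1a1, Col3a1, Tagln, Pdgfrb, Pecam1, Col1a2, Cd79b, Hba-a3, Alb, Ahsg, Cd1d1, Cd4, Cd8a and Rag1), and the 3 genes most like each of 4 members. Some genes of the pathway and marker lists are not reported here. Alternatives were slide or scan day as a block, the replicate number as a block, other background correction, scaling, filters and probes, the groups compared alone, and each array left out. Scan day, and the lists and correlations without saline replicate 2 or with a slide block, were added after seeing the data. The fit was tested on simulated data with independent noise and no slide effect, so that test does not bear on the part of the slide. Promoter windows came from RefSeq tables.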

Additional observations from a re-analysis of the deposited data

Results flagged for a closer look

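1 array stood apart in a member: Gpx1 in 5 ml/kg replicate 1 was at 3.44 where the nearest of its group was at 3.59, a gap of 0.831 of the group's range. Of 44 groups examined this way, 1 was marked, and chance marks about 1 in 20.

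Some effects of corn oil differed between volumes by the limma test of the difference itself. At 10 ml/kg against 2 ml/kg, Txnrd1 was higher by 0.56, Gpx1 by 0.44, Prdx1 by 0.44 and Sod2 by 0.74 on the log2 scale. At 10 ml/kg against 5 ml/kg, Txnrd1 was higher by 0.59 and Gpx1 by 0.43. None of these passed with slide as a fixed block.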

How the results depend on the processing

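Over the alternatives, 1611 values of single members were recomputed: 1530 stayed on their side of the threshold, 74 lost a call, 7 gained one and 0 called values turned sign. A further 93 changed sign with no call in either fit. The counts of members called at 10 ml/kg corn oil against saline (2), against 2 ml/kg (4) and against 5 ml/kg (2) became 0, 0 and 0 with slide as a fixed block, 1, 0 and 0 with slide as a random block and 1, 0 and 0 with scan day as a block (beside 5.23%, 3.41% and 1.25% of all genes). Normexp, run on the median signal because the files hold no mean signal, gave 0, 1 and 0 (beside 1.43%, 1.47% and 1.26% of all genes). The groups compared alone gave 0 against saline and 0 against 5 ml/kg (beside 2.07% and 3.48% of all genes). The count against saline was 1 with quantile normalisation, with the deposited value table and with no filter on dim probes. Those 3 settings called 5.01%, 6.13% and 4.78% of all genes. Against 2 ml/kg, quantile normalisation gave 5, Nqo1 being added, beside 9.09% of all genes. The mean of all probes gave 1 against saline and 1 against 5 ml/kg, beside 6.1% and 7.53% of all genes. Leaving out 1 array at a time gave 1 to 4 against saline (4 without saline replicate 5), 2 to 4 against 2 ml/kg and 1 to 3 against 5 ml/kg. Those fits called 4.11% to 20.7%, 5.38% to 23.5% and 3.33% to 13.8% of all genes. The 20.7% came without saline replicate 5. The cause of these changes was not tested. All counts at 2 and 5 ml/kg against saline and for the mean of the oil groups stayed at 0.

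Same-numbered arrays of different groups did not deviate together (correlations of -0.644 to 0.71, 6 of 27 above 0.1). Of these 27 pairs 2 shared a slide, and slide differences were not removed. The check therefore cannot show whether the numbers pair the samples. The replicate block gave 1 member against saline, 2 against 2 ml/kg and 2 against 5 ml/kg (beside 4.69%, 7.37% and 4.94% of all genes), and 6 of 19 arrays correlated best with their own number.

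Over all genes, 1436 were called at 10 ml/kg against saline, of which 44.2% were higher. Slide as a fixed block called 454 (57.3% higher), normexp 325 (74.2%) and quantile normalisation 1135 (73.3%), and leaving out 1 array gave 931 (saline replicate 3) to 4692 (saline replicate 5), with 940 without 10 ml/kg replicate 3. Against 2 ml/kg the higher share of calls was 29.6%, and 59% with normexp and 72.9% with quantile normalisation; against 5 ml/kg it was 44.5%, 63.6% and 66.8%. Those counts were 1219 to 5323 (without 2 ml/kg replicate 3 and without 10 ml/kg replicate 5) and 755 to 3123 (without 5 ml/kg replicate 1 and without 10 ml/kg replicate 5). The median of all genes moved from -0.13 to 0.09 with normexp and 0.06 with quantile normalisation, while the members' median was 0.33 and 0.34.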
